A study of Drosophila melanogaster with 3 samples.

Results

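In ChIP-seq of GFP-tagged Hsf, the heat shock transcription factor, 590 of the 30000 pooled candidate regions (1.97%) had their summit in a 3′ UTR of the Drosophila melanogaster genome. A region was taken when its summit lay over 500 bp from every annotated transcription start site (TSS), inside an annotated 3′ UTR, and outside every 5′ UTR and coding exon. The 590 regions lay in the 3′ UTRs of 528 host genes, of 13534 annotated genes with a 3′ UTR. Within the pooled list no binding value entered this choice, although that list itself holds regions called from the binding signal. The material was whole embryos aged 0 to 24 h, both sexes together, from a transgenic line that stably carries Hsf with GFP fused to its C terminus, and the labels name no heat treatment. Chromatin was sonicated to 200 to 800 bp and precipitated with an antibody against GFP. There were 3 biological replicates of 1 group, so every comparison is among regions within that group. Whole embryos mix all cell types and stages of these hours, so a weak region in all cells and a strong region in few cells cannot be told apart.

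A 3′ UTR is the stretch of a gene between its stop codon and its last transcribed base, and it is known mainly as RNA sequence that controls message stability, translation and location. On the DNA it lies at the far end of the gene, where transcription ends, and it often borders the promoter of a neighbouring gene. Hsf binds as a trimer to heat shock elements, arrays of the short unit GAA in alternating orientation, and is best known for its sites in the promoters of heat shock genes.

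Letters that resemble the element were present at few of the strongest 3′ UTR regions, and they are shown for comparison with the element itself. The element was written as GAANNTTC followed by 2 free bases and another GAA, searched on both strands within 100 bp of the summit, and 1 of its 9 fixed bases was allowed to differ. Capitals mark the fixed bases that matched, and lower case at a fixed position marks the mismatch; 5 bases of flank are shown on each side, read 5′ to 3′ on the strand given. The genome letters are those of RefSeq for dm6. The first 2 sites, in dao (2L:15254463-15254485, minus strand) and Hr4 (X:2005985-2006007, minus), belong to peaks on the authors' list of optimal peaks, defined below. The next 4 are at Myc and CG12535 (X:3389907-3389929, plus), dmrt99B (3R:29696618-29696640, plus), aay (3L:9424678-9424700, minus) and Rap1 (3L:1859639-1859661, plus). They come from the strongest regions with a match among those not on that list, and were chosen after their values were seen. The aay region also held an overlapping match on the plus strand (3L:9424683-9424705), which is not printed.
dao: aattcGAAtaTTCgttAAtttaa
Hr4: ctgagGAAttTTCaaGtAgaaat
Myc and CG12535: tactcGAAacTTtcgGAAgaaac
dmrt99B: agaaaGAActTTCttGAtttttg
aay: tgcatGAAatTTCtttAAattaa
Rap1: gtattaAAtaTTCtaGAAtttgt

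Such a match was found for 28 of the 590 regions (4.75%, 95% Wilson interval 3.30 to 6.77), beside 5.18% of all 30000 pooled regions. None of the 590 regions held the element without a mismatch, which allows a share of up to 0.647%, beside 0.253% of all pooled regions. Of the 43 regions that were optimal peaks (defined in the next paragraph), 3 held a match (6.98%, 2.40 to 18.6), beside 6.18% of all 5756 optimal peaks. The sites in dao, whose centre was 27 bp from the summit, and in Hr4, an ecdysone response gene for a nuclear receptor, whose centre was 17 bp from it, are printed above. The remaining site lay in Ppa, which encodes an F-box protein. The element was therefore found about as often at 3′ UTR summits as at pooled regions in general, within the intervals given. A match describes letters only, and a window without a match says nothing about binding.

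The authors' reproducibility test (IDR, irreproducible discovery rate) left a list of 5756 optimal peaks, which were the 5756 pooled regions with the highest signal, 19.2% of all pooled regions. Among the 3′ UTR regions, 43 of 590 were optimal peaks (7.29%, 5.46 to 9.67), under the 19.2% over all pooled regions. That background, like every later share over all pooled regions or a whole list, includes promoter regions, which the rule leaves out. Of 9821 promoter regions 3021 were optimal (30.8%). Regions in coding exons were optimal in 8 of 2806 cases (0.285%), intronic regions in 1865 of 11005 (16.9%) and intergenic regions in 740 of 5238 (14.1%). The 3′ UTR regions therefore stood between the coding and the intronic regions. The median signal was 33.8 in 3′ UTRs, 30.3 in coding exons, 40.7 in introns, 39.3 between genes and 41.4 over all pooled regions. Signal is the authors' own score, is not comparable between lists, and is used only to rank and describe regions inside 1 list. The authors' q value was under 0.05 in 108 of the 590 regions (18.3%), beside 35.5% of all pooled regions, and its median was 0.561 over the 590, so most of them were weak candidates. Optimal peaks at or above the median optimal signal made up 20 of the 590 regions (3.39%), beside a background of 9.59%.

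Per base, the same order was seen for optimal peaks but not for candidate regions. Over the 5.93 Mb of 3′ UTR sequence that the rule could reach, there were 99.5 candidate regions per Mb, beside 153 in coding sequence, 208 in introns, 144 between genes and 224 over the 6 arms together. Optimal peaks numbered 7.25 per Mb in 3′ UTRs, 0.435 in coding sequence, 35.3 in introns and 20.3 between genes. Candidate regions were thus sparser in 3′ UTRs than in coding sequence, while optimal peaks were denser there.

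Each replicate's own list was then sorted by the same rule, which gave 879, 447 and 674 3′ UTR regions in replicates 1, 2 and 3. The strongest 5756 regions of each list, as many as there were optimal peaks, are called its top regions. Replicate 1 had 47 top regions in 3′ UTRs (5.35%), beside 19.2% of its whole list. Replicate 2 had 48 (10.7%), beside 20.4%, and replicate 3 had 49 (7.27%), beside 19.2%. The number of top 3′ UTR regions hardly moved between replicates, whereas the number of weaker ones did. The mean share was 7.79% ± 2.73 (SD, n = 3), 11.8 percentage points under that of all regions (SD of the difference 2.09). Promoter regions, which the rule leaves out, are part of that comparison.

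Coding regions were in the top regions in 0.580%, 0.400% and 0.4995% of cases (0.493% ± 0.0902), so the 3′ UTR share was 7.29 points higher (SD 2.82). Intronic regions reached 16.2%, 18.7% and 16.6%, which put 3′ UTRs 9.38 points lower (SD 1.46). Intergenic regions reached 15.3%, 13.1% and 14.3%, a difference of −6.45 points for 3′ UTRs (SD 3.82). Every one of these 4 differences had the same sign in 3 of 3 replicates, and the 3′ UTR values did not overlap the coding, intronic or intergenic ones. With the number of top regions halved, to 2878, the differences were −6.65, 2.94, −4.76 and −2.92 points. Regions in 5′ UTRs outside promoters, a small class, were in the top in 30 of 300, 22 of 208 (10.6%) and 35 of 281 (12.5%) cases, and these shares overlapped the 3′ UTR values. The two-sided exact sign-flip permutation test gave p = 0.25 for each, the smallest value that 3 replicates allow (0.275 with Benjamini-Hochberg adjustment over 11 tests), so no difference could reach 0.05.

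**Figure D1:**
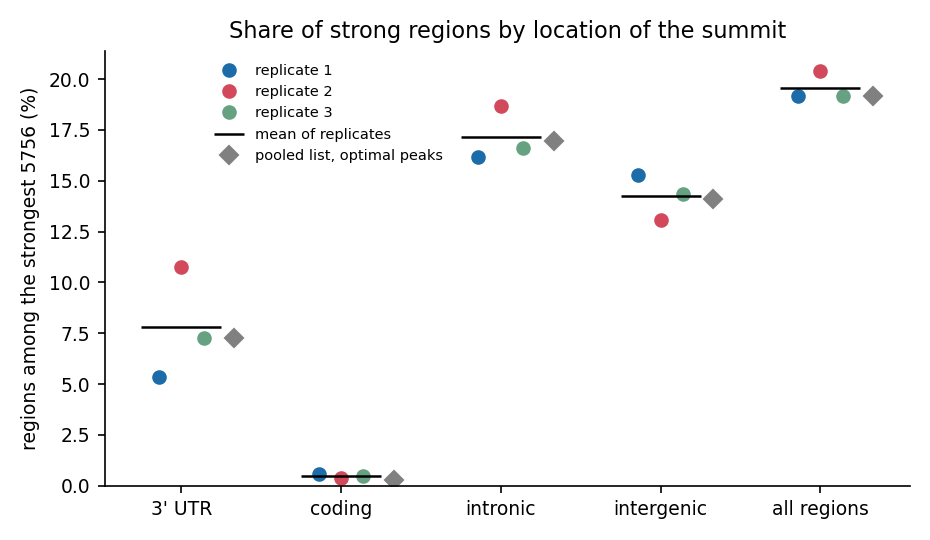
Share of regions (%, vertical axis) that were among the strongest 5756 of each replicate's list, by location of the summit (horizontal axis); circles are replicates, lines their means, and diamonds the optimal peaks of the pooled list. The 3′ UTR values (5.35%, 10.7% and 7.27%) lie above all coding values and below all intronic and intergenic ones.

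Base composition did not set 3′ UTRs and introns apart on average, since mean GC content within 100 bp of the summit was 39.1% in both. It was 39.5% between genes and 56.6% in coding exons. Within bins of GC content, however, the classes followed different courses. Among regions under 35% GC, 17 of 201 3′ UTR regions were optimal (8.46%, 5.35 to 13.1), beside 27.6% of 3699 intronic and 21.3% of 1782 intergenic regions. From 35% to 40% GC the shares were 8.97% in 3′ UTRs, 20.02% in introns and 19.98% between genes, and from 40% to 45% they were 5.26%, 10.3% and 10.3%. At 45% GC and above, 7 of 130 3′ UTR regions were optimal (5.38%, 2.63 to 10.7), beside 3.62% of 2566 intronic, 2.45% of 1389 intergenic and 0.263% of 2659 coding regions. The share of optimal peaks thus dropped steeply with GC content in introns and between genes, and stayed within overlapping intervals in 3′ UTRs.

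The replicate lists were compared in the same way, with bins chosen after the pooled values were seen. Under 40% GC, top regions made up 5.48%, 15.1% and 6.85% of 3′ UTR regions in replicates 1, 2 and 3, and 21.8%, 29.4% and 25.7% of intronic ones. The 3′ UTR share was lower in 3 of 3 replicates, by a mean difference of −16.5 points (SD 2.23). At 45% GC and above, top regions made up 6.31%, 6.29% and 8.33% of 3′ UTR regions and 5.14%, 3.12% and 4.53% of intronic ones, so that here the 3′ UTR share was higher in 3 of 3 replicates, by 2.72 points (SD 1.38). These shares rest on 7, 9 and 12 top 3′ UTR regions, and the exact permutation p was 0.25 for each difference (adjusted 0.275). The 3′ UTR regions of the replicates differed in mean GC content (36.8%, 40.8% and 39.2%), as did the whole lists (40.2%, 42.3% and 42.9%), and the part of this in the shares was not tested.

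**Figure D2:**
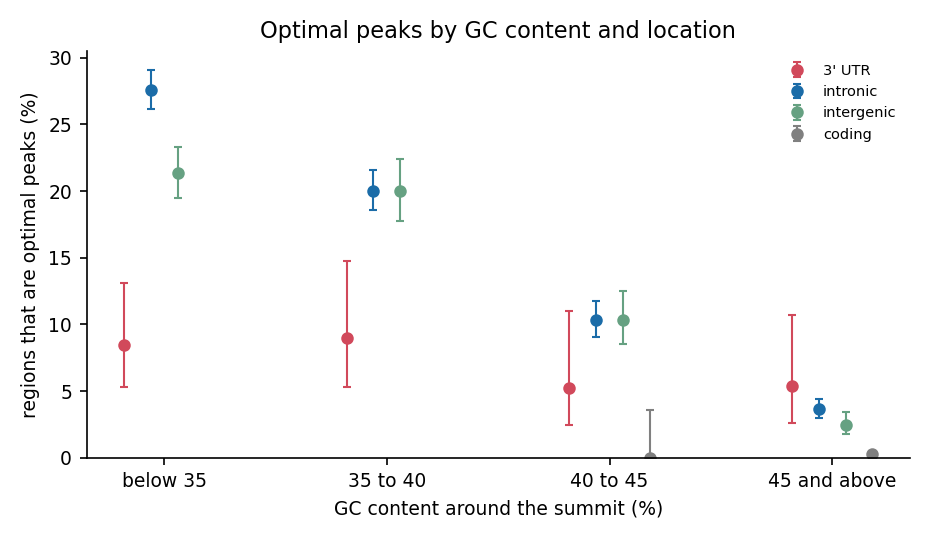
Share of pooled regions that were optimal peaks (%, vertical axis) by GC content within 100 bp of the summit (%, horizontal axis) and by location; points are shares and bars 95% Wilson intervals, which cover counting error only, and bins with under 100 regions are not drawn. Intronic regions fall from 27.6% to 3.62% across the bins, while 3′ UTR regions run from 8.46% to 5.38%.

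The signals of the 590 regions ran from 24.7 to 610, with 50% of them between 28.0 and 46.6. The 43 optimal peaks had signals of 98.8 to 610 (median 160) and the remaining 547 regions 24.7 to 94.5 (median 32.6). The strongest, in Cals (4:1113149-1113486), the gene for the cadherin-family protein calsyntenin, had a pooled signal of 610 and rank 262. It ranked 233, 332 and 306 in replicates 1, 2 and 3, with signals of 249, 198 and 154 on the scales of those lists. Its summit lay 9642 bp from the nearest TSS, that of Cals itself, and 449 bp from the transcript end. It thus sat deep in the gene and near the front of every list.

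The next 4 peaks lay in CG33307, Pde1c, CG10357 and CG7872. CG33307 (2L:13839753-13840093) had a signal of 480 and ranked 449 in the pooled list and 375, 475 and 643 in the replicates. Pde1c (2L:11816442-11816699), a phosphodiesterase gene, had a signal of 465 and replicate ranks of 434, 877 and 287. Its summit was 0.2498% of the way along a 3′ UTR segment of 2402 bp, close to the start of that segment. This summit had the highest GC content among the 43 optimal peaks, 59.2%. CG10357 (3L:3616422-3616690) had a signal of 429 and ranks of 1504, 371 and 380, and its summit fell at the start of a 3′ UTR of only 133 bp, the shortest segment among the optimal peaks. CG7872 (X:15579678-15579912) had a signal of 425 and ranks of 556, 757 and 604, with its summit 66 bp from the transcript end. All 5 were in the top regions of every replicate.

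Several named host genes have well known products. The peak in stas, the fly relative of TMEM41B (X:17625058-17625189, signal 335), ranked 944, 1496 and 549. The peak in by, the tensin gene (3R:9528541-9528746, signal 306), ranked 1300, 1197 and 895, and the promoter of by also held an optimal peak, of signal 611. REG, which encodes a proteasome activator (X:13214171-13214315, signal 296), had ranks of 1240, 1478 and 918. All 3 were in the top regions of each replicate.

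Tctp, the gene of the translationally controlled tumour protein (3R:11211736-11211910, signal 254), ranked 1637, 1290 and 1745, with its summit 92 bp from the transcript end and an optimal peak of signal 206 at its promoter. The peak in dao (2L:15254239-15254654, signal 224) ranked 2000, 2345 and 1661. The peaks of CG9837, CG8206, the Ras GTPase activator gene raskol, the potassium channel regulator gene qvr and the Toll adaptor gene Myd88 had signals from 217 to 222. Among these, raskol ranked 4861 in replicate 1 and 1316 and 1262 in the other lists, the widest spread of ranks among these 5.

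The neural transcription factor gene pros (3R:11392791-11393206, signal 203) has a 3′ UTR segment of 15530 bp, the longest among the 590 regions, and its peak lay 5.80% of the way along it. It ranked 2090, 2346 and 2416. NetB, the gene of the axon guidance factor netrin B (X:14689211-14689370, signal 202), ranked 1821, 2467 and 3364. CG14440 (194), Hr4 (173) and CG10222 (168) completed the strongest 20. Of these 20 peaks, the one in Hr4 alone fell outside the top regions of a replicate, with ranks of 1695, 8406 and 2219.

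**Figure D3:**
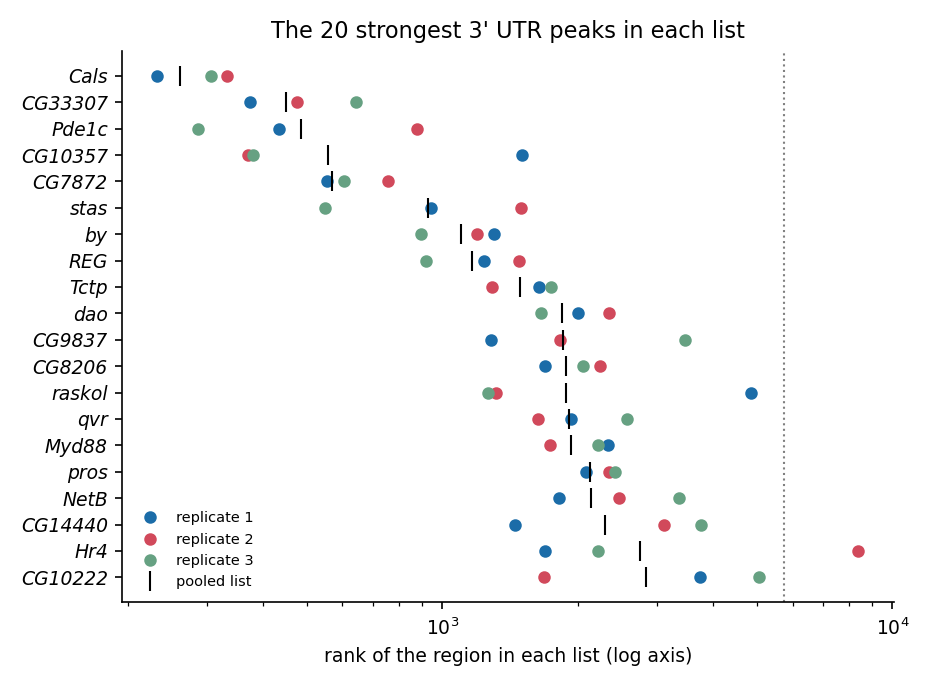
Ranks (horizontal log axis, 1 = strongest) of the 20 strongest 3′ UTR peaks, named by host gene, in the pooled list (bars) and in each replicate list (circles); the dotted line marks rank 5756. Cals, with replicate ranks of 233, 332 and 306, sits farthest to the strong side, and the replicate 2 rank of Hr4, 8406, lies past the line.

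Recovery in the replicates was counted by overlap of at least 1 bp. Of the 590 regions, 70.7%, 45.6% and 64.6% overlapped a region of replicates 1, 2 and 3 (60.3% ± 13.1, n = 3), beside 71.2% ± 4.38 of all pooled regions, and 9.15%, 8.64% and 9.83% overlapped a top region (9.21% ± 0.595), beside 22.5% of all. A top region of all 3 replicates was overlapped by 32 of the 590 regions (5.42%), beside a background of 15.1%. Once a 3′ UTR region was an optimal peak, it was recovered as often as other optimal peaks, with 86.0%, 90.7% and 79.1% found in the top regions (85.3% ± 5.85), beside 86.0% ± 0.622 of all 5756. In all 3 lists 42 of the 43 had a counterpart, the exception being CG17290, which had none in replicate 3. Since the pooled list and the replicate lists share their reads, recovery is a description of strength and spread and not an independent test.

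Of the 32 regions in the top of all 3 replicates, 4 were not optimal. They lay in CG4004, CG33307, Rgk1 and Afg3l2, named after their values were seen, and each summit was 200 to 213 bp from the summit of an optimal peak. Their pooled signals were 60.3, 35.9, 33.5 and 33.2. The counterpart in the replicates of the CG33307 region was the same as that of the strong peak beside it, with ranks 375, 475 and 643. Among all 590 regions, 124 (21.0%) had another optimal summit within 2000 bp, beside 11 of the 43 optimal ones.

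**Figure D4:**
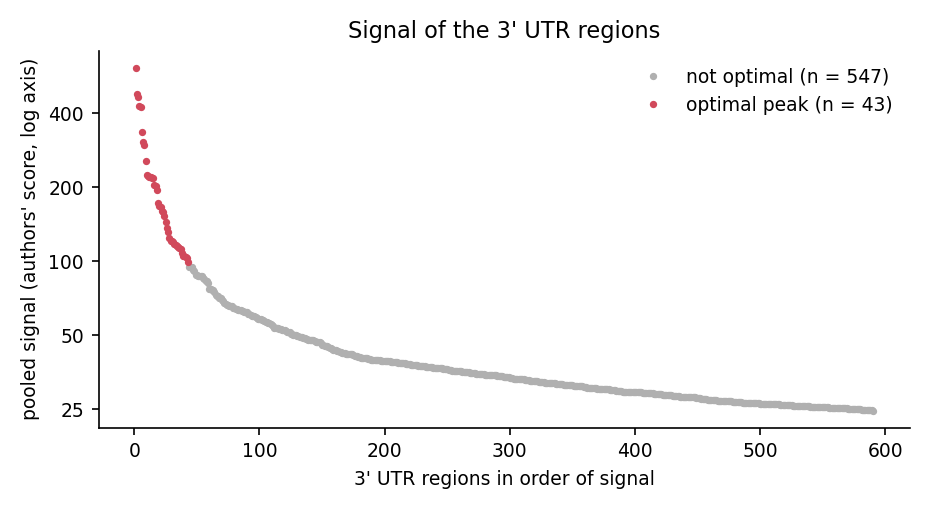
Pooled signal (authors' score, vertical log axis) of the 590 3′ UTR regions in order of signal (horizontal axis), with the 43 optimal peaks in red and the remaining 547 regions in grey. The curve drops from 610 to 98.8 over the optimal peaks and levels off to 24.7 at its end.

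Position in the host gene showed no concentration at either end of the 3′ UTR. Summits lay at a median of 52.6% of the way along their 3′ UTR segment (quartiles 26.6% and 77.8%), and those of optimal peaks at 52.0%. Throughout, the transcript end was taken as the nearest end of an annotated 3′ UTR segment holding the summit, over all transcripts. It can be that of a shorter isoform, or of an inner exon where the 3′ UTR is spliced. The distance from the summit to this end had a median of 335.5 bp, and 203 of the 590 summits (34.4%) were within 200 bp of it. Host 3′ UTRs were long, with a median longest segment of 1048 bp, beside 225 bp over all genes with a 3′ UTR, and a longer segment offers more bases for a summit. In the replicates, top 3′ UTR regions had median distances to the transcript end of 236, 310 and 336 bp, and the remaining ones 302, 420 and 347 bp, a mean difference of −62.3 bp (SD 49.6, shorter in 3 of 3, exact permutation p = 0.25). The corresponding medians for the nearest TSS were 1597, 1581 and 1815 bp against 1882, 2389 and 1846 bp (−375 bp, SD 396, shorter in 3 of 3, exact permutation p = 0.25). This difference was −158 bp without replicate 2, and the difference in distance to the transcript end was −38.5 bp without it. Mean GC content was 36.5%, 37.7% and 39.7% in the top regions and 36.9%, 41.2% and 39.1% in the others, with no common direction (exact permutation p = 0.75).

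By distance to the TSS, 3 of 116 regions at 500 to 1000 bp were optimal (2.59%, 0.883 to 7.33), beside 15.6% of all nonpromoter regions at that distance. At 1000 to 2000 bp it was 22 of 200 (11.0%, beside 13.8%), at 2000 to 5000 bp 12 of 198 (6.06%, beside 13.1%) and beyond 5000 bp 6 of 76 (7.89%, beside 12.5%). The interval of the 1000 to 2000 bp bin (7.38 to 16.1) lay just above that of the nearest bin. Those of the 2000 to 5000 bp bin (3.50 to 10.3) and of the farthest bin (3.67 to 16.2) overlapped it. The share thus did not rise steadily with distance. Just inside the limit of the rule, from 500 to 600 bp, 21 regions had signals of 25.04 to 72.2 (median 30.4) and none was optimal. Just outside it, from 400 to 500 bp, 23 summits in 3′ UTRs had signals of 25.1 to 219 (median 39.0) and 4 were optimal.

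The promoter of the host gene held an optimal peak for 15 of the 43 optimal regions (34.9%, 22.4 to 49.8) and for 232 of the remaining 547 (42.4%, 38.3 to 46.6), with overlapping intervals. It held no candidate region at all for 7 of the 43 (16.3%), CG33307, Pde1c and CG10357 among them, and for 111 of the 547 (20.3%). Promoters were examined for host genes only, so these shares cannot be set against those of all genes. The nearest TSS belonged to the host gene for 22 of the 43 optimal regions and for 196 of the 547 others (35.8%). In the rest a neighbouring gene started closer, as for the peak in Pde1c, 2771 bp from the start of CycY. Of the 590 summits, 14 lay in 3′ UTRs of more than 1 gene, 8 of them on both strands. None of these 14 was optimal, which is close to what the share of 7.29% over all 590 would give.

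The X chromosome held 16 of the 43 optimal 3′ UTR regions (37.2%, 24.4 to 52.1) and 114 of the 547 others (20.8%, 17.6 to 24.4). It holds 23.5% of the 3′ UTR bases within reach of the rule, and it carried 18.6% of all optimal peaks. By arm, 12.3% of the 3′ UTR regions on X were optimal (7.72 to 19.1). The shares were 6.41% on 2L (2.77 to 14.1), 7.63% on 2R (4.06 to 13.9) and 5.56% on 3L (2.57 to 11.6). They were 3.97% on 3R (1.83 to 8.40) and 1 of 5 on chromosome 4. The intervals of 2L, 2R, 3L and 3R all overlapped that of X. Over all pooled regions of an arm, the optimal share was 20.4% on X, 19.1% on 2L and 18.6% on 2R. On 3L, 3R and chromosome 4 it was 18.2%, 19.8% and 13.6%. The X was singled out after these values were seen. The 16 X-linked peaks included those in CG7872, stas, REG, CG8206, raskol, NetB, CG14440 and Hr4, and lay at similar GC content (mean 37.6%) to the 27 on other arms (37.2%).

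In the replicates, 34.0%, 29.2% and 32.7% of the top 3′ UTR regions were on X, against 22.6%, 17.8% and 20.2% of the remaining ones. The difference was 11.8 percentage points (SD 0.627, higher in 3 of 3 replicates, exact permutation p = 0.25). For all regions outside 3′ UTRs the X-linked share of top regions was 16.8%, 19.8% and 18.3% against 17.7%, 15.5% and 16.3% of the rest. The 3′ UTR difference exceeded that of the other regions by 9.98 points (SD 2.69, 3 of 3, exact permutation p = 0.25). Intronic regions alone had 22.4%, 26.2% and 25.6% on X among top regions and 20.1%, 18.7% and 18.8% among the rest, so they also had more X-linked regions at the top in each replicate. Of the 43 optimal regions 28 were in the top of all 3 lists, so the lists hold many of the same regions, and sexes were pooled in each.

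**Figure D5:**
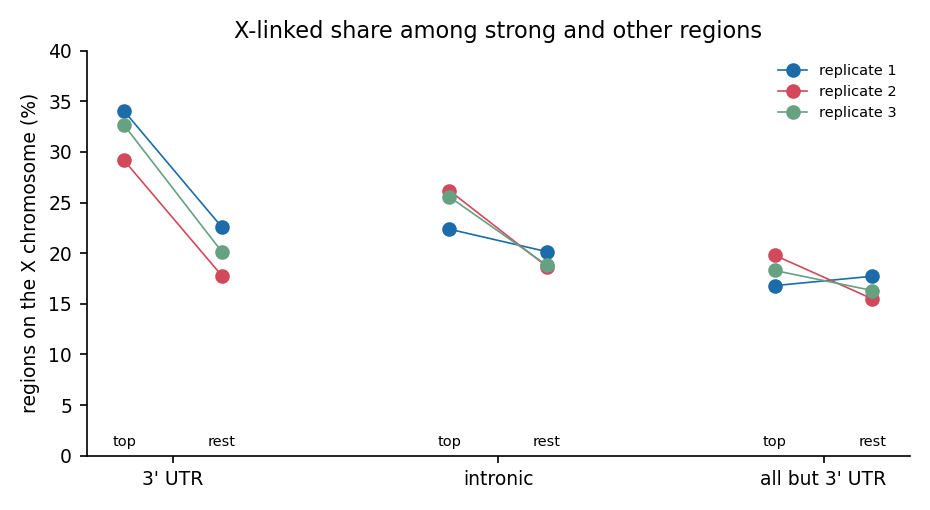
Share of regions on the X chromosome (%, vertical axis) among the strongest 5756 regions of a replicate list (top) and its remaining regions (rest), for 3′ UTR regions, intronic regions and all regions outside 3′ UTRs; each line is a replicate. The 3′ UTR lines drop from 34.0%, 29.2% and 32.7% to 22.6%, 17.8% and 20.2%.

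Most host genes had a single region, 467 of 528, while 49 had 2 and 12 had 3 or more. Among all 3′ UTR regions there were 33 overlapping pairs, so these are counts of regions and not of separate sites. The most regions, 5, lay in corto, a gene of chromatin regulation, in a 3′ UTR segment of up to 6594 bp, with signals of 26.3 to 44.0 and no optimal peak. Several of these corto regions overlapped and shared their counterparts in replicates 1 and 2 (ranks 18807 and 7068). Of the 4 regions in by only the strongest was optimal, and the others had signals of 53.6, 39.1 and 26.3. CG1888 also had 4 (35.3 to 77.2), and CkIIbeta, elav, miple1, ps, scyl, Lsd-2, lola, mub and CG12581 had 3 each, none of them optimal. Only Ppa and Cam held 2 optimal peaks. The 2 in Ppa (signals 160 and 105) overlapped and had the same counterparts, ranks 3169, 2596 and 3074, so they count as 1 site. Those in Cam, the calmodulin gene (signals 125 and 98.8), lay 3801 bp apart in a 3′ UTR of 5015 bp and ranked 6101, 4770 and 3063, and 10507, 4977 and 4607.

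None of the 17 heat shock inducible genes with an annotated 3′ UTR held a candidate region there. Of 21 other chaperone genes, Hsc70-3, which encodes the endoplasmic reticulum chaperone BiP, held 1 (signal 38.4, not optimal). Of 86 cytosolic ribosomal protein genes 6 held 1 region each, none optimal, the strongest in RpS26 (69.0), RpL5 (32.5) and RpL7A (28.7), and their median signal was 28.0 beside 33.8 over all 590 regions. For comparison, 528 of 13534 genes with a 3′ UTR held a region and 41 an optimal one. With 17 genes, a count of 0 is close to what that overall share would give.

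Neuronal genes held 8 regions in 5 of 18 genes, with a median signal of 37.1. Beside pros, the optimal one, these were elav (65.5, 62.0 and 25.6) and Rbp9 (39.3 and 25.3), which encode related neuronal RNA-binding proteins, Syx1A, a syntaxin gene (34.9), and brp, an active zone gene (31.6). Of 19 matched genes of RNA-binding translational control, 4 held 7 regions and none was optimal, with pum, the Pumilio gene, at 33.2 and mub at 31.4. At its strongest region, each of the 5 neuronal hosts had a 3′ UTR segment of 1968 bp (Syx1A) to 15530 bp (pros). For mub and pum it was 9514 and 4602 bp, beside a median longest segment of 225 bp over all genes with a 3′ UTR. Longer segments offer more bases for a summit, and their part in these counts was not tested. Of 13 ecdysone response genes, Hr4 held an optimal peak and EcR, the ecdysone receptor gene, a region of signal 56.3. Of 8 Hox genes Antp held a region (72.2), and of 25 segmentation genes cad (27.3) and prd (26.5) did. Muscle genes held 3 regions in 2 of 16 genes, the myosin heavy chain gene Mhc (34.2) and the tropomyosin gene Tm1 (29.9 and 25.3), and of 22 matched signalling genes aos, which encodes an EGF receptor antagonist, held 1 (37.1). Across these lists, optimal 3′ UTR peaks were confined to pros and Hr4 among the genes matched.

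Other short motifs were counted in the same windows on both strands. The hexamer AATAAA, which serves as a signal for polyadenylation, was present in 41.9% of the 590 regions (37.9 to 45.9), beside 37.4% of all pooled regions. GAGAGAG, bound by GAGA factor, was present in 2.88% (beside 3.32%) and TATAAAA in 13.2% (beside 11.2%). CACACAC was present in 10.3% of the regions (8.13 to 13.1), beside 7.23%. TATCGATA, the site of the promoter factor DREF, was present in 4 of 590 (0.678%, 0.264 to 1.73), beside 2.41% of all pooled regions. None of the 43 optimal regions held it, which allows a share of up to 8.20%, beside 4.97% of all optimal peaks. The DREF site was thus the motif with the largest relative shortfall at 3′ UTR summits among these 5. The rule leaves out promoter regions, which make up 32.7% of all pooled regions. Motifs were not counted in other classes away from promoters, so this shortfall cannot be read as particular to 3′ UTRs.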

How the data were processed

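Hsf-GFP was measured by ChIP-seq in 3 biological replicates of 1 group. Per the labels, the authors deposited region lists in narrowPeak format that entered IDR, for each replicate and for the pool, and a list of optimal peaks; the dm6 lists were used and the dm3 lists were not. Each region carries the authors' deposited signal score, on a scale of its own per list, and a deposited −log10 q value, which was at its ceiling of 4.12 in 54 of the 590 regions, the 43 optimal ones included. Ranks therefore follow the signal. Which aligner and peak caller were used is not given in the sources used here. The lists hold no read counts, and depth per sample is unknown.

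Summits were assigned, in order, to promoter (within 500 bp of a TSS), 5′ UTR, coding, 3′ UTR, noncoding exon, intron and intergenic, on Ensembl release 115 models (annotation 6.54) over 6 arms, without transposable element models. Python 3.11.15, numpy 2.4.6, pandas 2.3.3, scipy 1.17.1 and matplotlib 3.10.9 were used, and the steps were tested on simulated data. Wilson intervals (95%) cover counting error over regions only. Differences over replicates were tested by exact sign-flip permutation, two-sided, with Benjamini-Hochberg adjustment over 11 tests. The list of replicate 2 held 28225 regions and the others 30000. Every 50-base stretch was unique in the genome for 588 of the 590 regions, those in CG32767 and drn excepted.

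The genes named were hosts of the 20 strongest optimal 3′ UTR peaks, of optimal peaks with an element, of 3 or more regions or 2 optimal ones, and the 3 strongest regions of each of 10 gene lists, of whose 250 symbols 246 matched the annotation. The others named were chosen after their values were seen. The regions and lists were chosen with earlier results of these data known. Alternatives were other TSS distances, windows, thresholds and overlaps, summits in no intron or noncoding exon, and leaving out each replicate. The alternatives for the X chromosome and the GC bins were added after seeing the data.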

Additional observations from a re-analysis of the deposited data

How the results depend on the processing

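Of 74 alternatives tried, 65 kept the direction of a difference or left a share within its error, 8 moved a share beyond it and 1 reversed a difference. In 10 of the 65 the value itself moved by over 1.5 times. With the number of top regions halved, the differences of 3′ UTRs from all, coding, intronic and intergenic regions were −6.65, 2.94, −4.76 and −2.92 points, that from introns under 40% GC was −8.37 points, and the distances to the TSS and the transcript end differed by −192 and −118 bp. Without replicate 2 these distances differed by −158 and −38.5 bp. The difference in GC content between top and other 3′ UTR regions reversed to 0.0860 points without replicate 2, within a leave-one-out range of −1.95 to 0.0860. The share of optimal 3′ UTR regions (7.29%) became 3.39% with only optimal peaks at or above their median signal, and 5.08% to 5.59% when a peak also had to lie in the top of both replicates left after leaving out a replicate. The share found in a replicate's top (9.21%) became 7.63% with summits within 100 bp and 3.67% with the number of top regions halved. The share with a heat shock element (4.75%) became 2.37% within 50 bp, 12.2% within 250 bp and 0.0% with no mismatch. A wider or narrower window and stricter limits change these shares by construction. With 2 replicates the smallest p is 0.5. All 11 tests were already taken within replicates, and with 1 group there was no further pairing to fit. The unknown depth and the 43 optimal peaks limit every share within subsets.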
